A study of Mus musculus with 2 samples.

Results

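Glycolysis and hypoxia-response genes are described here as 44 named genes, from glucose uptake to lactate export, with the oxygen-sensing machinery and other targets of the hypoxia-inducible factors (HIF). A member was taken from the probe sets that carry its symbol alone, the brightest probe set standing for the gene, and was compared where its log2 signal reached a floor of 7 in at least 1 array. A probe set of its own was found for 41 of the 44 members, and 39 were compared, out of 9897 genes compared on the arrays. The arrays were 2 Affymetrix Mouse Genome chips hybridised with RNA of cultured rib chondrocytes, 1 labelled wild type (control) and 1 labelled miR-140 KO (depletion of the microRNA miR-140). Both cultures came from mice aged 5 days and carry 1 strain label that names C57BL/6 and CBA. How many animals were pooled, the sex of the mice and which part of the miR-140 locus was removed are not given in these sources. The question behind the arrays was which transcripts miR-140 might repress. With 1 array a group there is no replicate, so every difference below describes this pair of arrays and has no test, and 2 arrays limit the precision.

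Glycolysis splits glucose into pyruvate in the cytosol. Cells short of oxygen reduce that pyruvate to lactate and export it, while pyruvate dehydrogenase kinases keep it out of the mitochondria. When oxygen is plentiful, the prolyl hydroxylases encoded by the Egln genes mark the HIF alpha subunits for destruction through the von Hippel-Lindau protein (Vhl). When it is scarce, the alpha subunits pair with the beta subunit encoded by Arnt and turn on genes of glucose uptake, glycolysis and cell survival. Cartilage has no blood vessels, and its cells are known to depend on Hif1a for survival and on glycolysis for energy.

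The sequences behind the comparison are the deleted microRNA and the promoters on which HIF acts. The mature 3p strand of the mouse Mir140 gene (RefSeq, GRCm38.p6, chr8:107551288-107551308, plus strand) is shown with its seed, bases 2 to 8, in capitals, because it is a product of the deleted gene.
mmu-miR-140-3p: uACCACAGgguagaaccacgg
The core of the HIF binding motif was searched as ACGTG and GCGTG on both strands, in windows from 250 bases before to 50 after each RefSeq transcription start (GRCm38.p6). A palindrome CACGTG holds the first core on both strands and counts as 2 matches. Matches are in capitals below, where a core on the opposite strand reads CACGT or CACGC. The 4 promoters shown are those of Ero1a and Higd1a, which had lower signal in the knockout array, of Car9, which had the highest difference of all members, and of Pgk1, an enzyme close to 0.
Ero1a promoter (chr14:45318523-45318822, minus strand): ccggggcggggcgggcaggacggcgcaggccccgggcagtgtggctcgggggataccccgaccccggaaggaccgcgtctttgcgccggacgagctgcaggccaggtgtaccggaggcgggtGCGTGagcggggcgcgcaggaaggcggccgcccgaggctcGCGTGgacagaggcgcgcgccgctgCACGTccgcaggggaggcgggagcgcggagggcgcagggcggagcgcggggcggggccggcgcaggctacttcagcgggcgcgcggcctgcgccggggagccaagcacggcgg
Higd1a promoter (chr9:121857747-121858046, minus strand): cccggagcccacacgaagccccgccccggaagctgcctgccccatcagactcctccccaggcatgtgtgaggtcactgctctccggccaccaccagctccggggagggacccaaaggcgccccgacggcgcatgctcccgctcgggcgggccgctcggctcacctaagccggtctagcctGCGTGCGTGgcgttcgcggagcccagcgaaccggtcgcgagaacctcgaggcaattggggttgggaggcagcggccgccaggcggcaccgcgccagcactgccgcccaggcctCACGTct
Car9 promoter (chr4:43506776-43507075, plus strand): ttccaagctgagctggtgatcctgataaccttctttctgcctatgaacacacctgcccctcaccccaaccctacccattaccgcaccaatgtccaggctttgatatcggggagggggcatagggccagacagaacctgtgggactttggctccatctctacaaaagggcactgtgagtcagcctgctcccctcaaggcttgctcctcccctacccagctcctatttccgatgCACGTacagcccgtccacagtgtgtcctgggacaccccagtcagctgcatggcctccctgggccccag
Pgk1 promoter (chrX:106186850-106187149, plus strand): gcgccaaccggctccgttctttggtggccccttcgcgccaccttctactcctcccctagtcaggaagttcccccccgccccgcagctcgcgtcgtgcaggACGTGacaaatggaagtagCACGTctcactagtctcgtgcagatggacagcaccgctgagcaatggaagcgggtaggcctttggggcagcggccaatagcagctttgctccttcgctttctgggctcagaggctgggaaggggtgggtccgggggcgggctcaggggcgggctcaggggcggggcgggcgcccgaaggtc
The Ero1a and Higd1a windows each held 3 cores, 1 of them ACGTG, the Pgk1 window held 2 cores, both ACGTG, and the Car9 window held 1 ACGTG core. A core was thus present in a promoter with lower signal, in one with higher signal and in one with little difference. Over all members, 40 had promoter windows, 53 in total, and 42 of the windows (79.2%) held at least 1 core, against 43.8% of 32851 windows of all genes. ACGTG alone was found in 29 of the 53 (54.7%) and in 19.6% of all windows. Windows of the same gene can overlap and count the same core again, as with Aldoa and Pfkm. Both cores contain CG, and member windows held a median of 20 CG pairs against 7 in all windows. Among windows with 20 or more CG pairs, either core stood in 26 of 29 member windows (89.7%) and in 73.6% of 8701 windows of all genes. In the same windows ACGTG stood in 22 of the 29 (75.9%) and in 29.0% of the 8701. The 24 compared members with ACGTG in a window had a median difference of -0.17 on the log2 scale, and the 12 without it -0.11, with ranges of -0.89 to 0.40 and -0.43 to 0.10. Ndrg1, Slc2a3 and Epas1 are in neither count; the first pair have the lowest differences after Ero1a. A match is a description of letters and not a bound site. The members were listed in part as HIF targets, so their share of windows with a core is no independent result. The windows of all genes come from 27025 genes, not from the compared genes alone.

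Signal of the members was slightly lower in the knockout array for most of the pathway. Differences are the log2 signal of the knockout array minus that of the wild type throughout. Of the 39 compared members, 31 had lower signal in the knockout array and 8 higher, where 59.2% of all compared genes were lower. The members were chosen with earlier results of these data known, so such counts are a description and not an independent test. The median of the members was -0.14, and their quartiles were -0.26 and -0.07, beside a median of -0.05 and quartiles of -0.18 and 0.09 for all compared genes. Of the members, 21 lay within 0.2 of 0. The share of all compared genes in that range was not counted, though both of their quartiles lie in it. By the probe set used, 9 members were lower by 0.32 or more on the log2 scale, against 11.1% of all compared genes. In the higher direction 1 member reached it, against 5.52%. The 9 depend on that choice of probe set. With probe sets averaged, Ero1a (-0.60) and Ndrg1 (-0.44) still reached it. Hk1 (-0.02), Pfkp (-0.04), Aldoc (-0.18), Pfkfb3 (-0.24), Egln1 (-0.30) and Higd1a (-0.317, short of 0.322) did not, and Slc2a3 was not compared. At 1.5-fold or more, 2 members were lower, Ero1a and Ndrg1, against 3.56% of all compared genes, and no member was higher, against 1.56%. Slc2a3, Pfkfb4, Pdk2 and Car12 passed the floor through the wild-type array alone, so they could only be lower. Of the 35 members above the floor in both arrays, 27 were lower, and the matching share of all genes was not counted. With the floor set on the mean of both arrays, 77.8% of members were lower, beside 59.1% of all compared genes.

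Some other values of this pair of arrays go with these differences. The 7 chondrocyte markers checked (Acan, Col2a1, Sox9, Col9a1, Hapln1, Matn3 and Comp) were above the floor in both arrays, as the labelled cell type asks, but all 7 were lower in the knockout array, with a median of -1.67, and their summed linear signal was 44178 in the wild-type array and 12262 in the knockout array. Of 10 fibroblast and perichondrium markers above the floor, 7 were higher, with a median of 0.21, and their list summed to 40518 and 46058. Xist differed by 3.59 and 3 Y-linked genes by -4.68 to -3.62, so the sex of the mice, or the share of each, was not matched between cultures. The 18S ribosomal RNA control probe sets had a median of -0.52. Wwp2, the host gene of miR-140, read 9.65 in the wild-type array and 7.13 in the knockout array (-2.52). The part of these shifts in the values of the members was not tested. In bulk RNA, fewer cells of a type and less RNA per cell cannot be told apart.

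**Figure D1:**
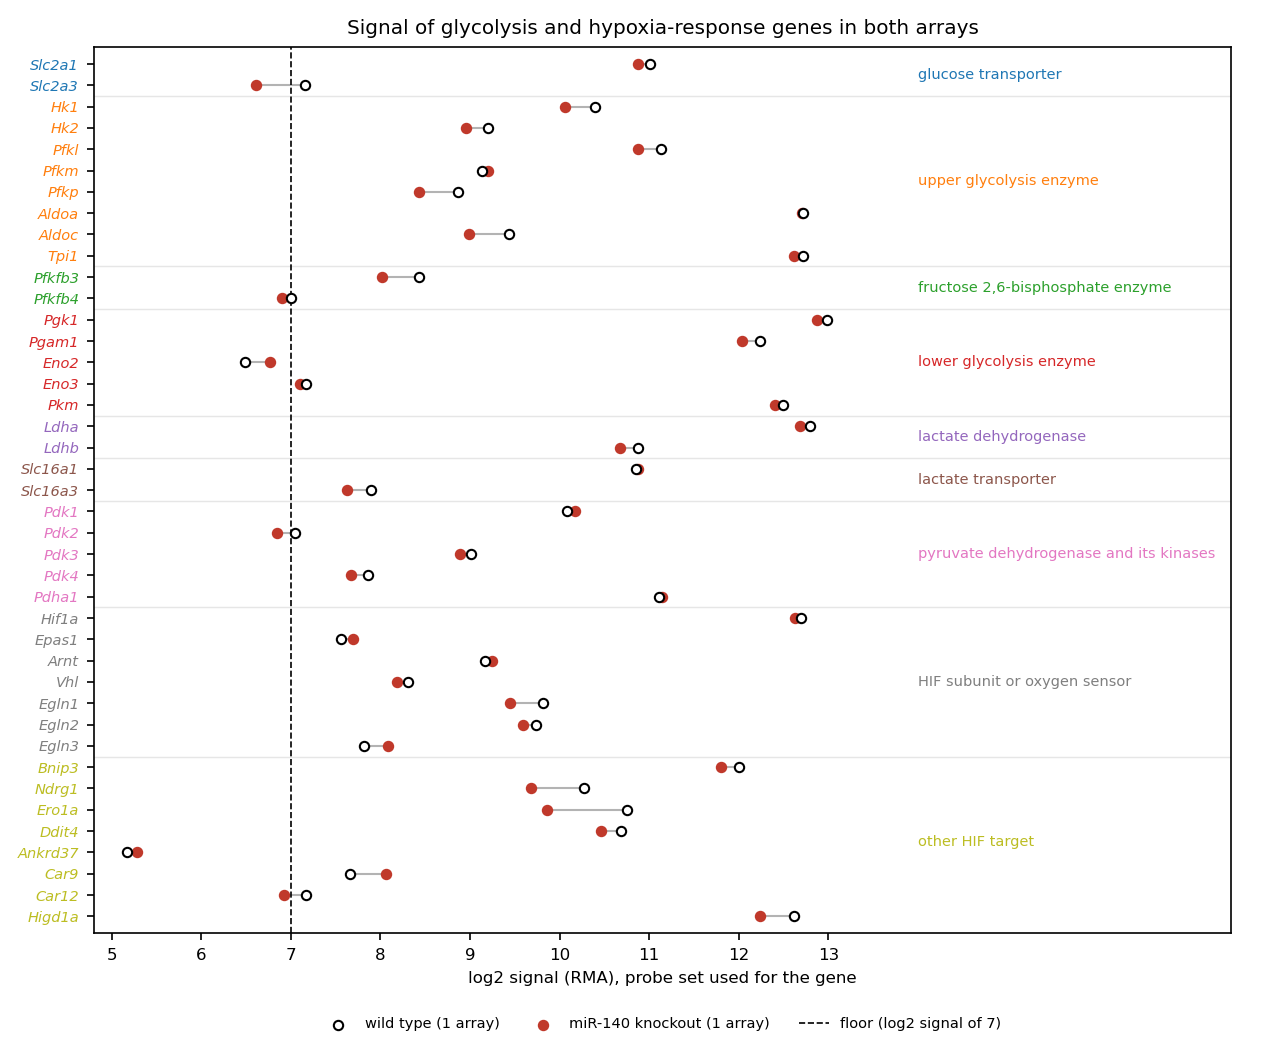
Log2 signal (RMA, horizontal axis) of the 41 members with a probe set of their own, in the wild-type array (open circles) and the knockout array (red circles), ordered by pathway step; the dashed line is the floor of 7. Ero1a has the widest gap between its circles (10.75 and 9.86), and Eno2 and Ankrd37 lie under the floor in both arrays.

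Glucose enters through the transporters. Slc2a1, which encodes the widespread transporter GLUT1, read 11.01 in the wild-type array and 10.88 in the knockout array (-0.13). Its other probe sets above the floor gave the same direction, with the 3 between -0.14 and -0.07. Slc2a3 (GLUT3, a high-affinity transporter) read 7.16 and 6.61, a difference of -0.55 (1.47-fold lower). The knockout value is below the floor; raising values below 7 to 7 leaves -0.16.

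The upper enzymes turn glucose into triose phosphates. By the probe set used, 7 of 8 compared had lower signal (Aldoa among them only without rescaling), beside 59.2% of all compared genes, and the median was -0.25. Of these, 3 were lower by 0.32 or more, beside 11.1%, namely Hk1, Pfkp and Aldoc, and the first pair have another probe set with higher signal. Hk1 and Hk2 encode the hexokinases that trap glucose in the cell. Hk1 read 10.40 and 10.07 (-0.33), but its other probe set read 8.18 and 8.47 (0.29), so its probe sets give no common direction. Hk2 read 9.20 and 8.95 (-0.25). The phosphofructokinases catalyse the committed step. Pfkl, the liver type, read 11.13 and 10.87, a difference of -0.26, with a further probe set at -0.08. Pfkp, the platelet type, read 8.87 and 8.44 (-0.43, 1.35-fold lower), while a further probe set went from 7.57 to 7.82 (0.25). Pfkm, the muscle type, read 9.14 and 9.20 and was the 1 enzyme of the group with higher signal, by 0.07. The 3 phosphofructokinase genes thus shared no common direction.

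Aldolases and triose phosphate isomerase close the upper part. Aldoa, the ubiquitous aldolase, read 12.72 and 12.71 (-0.01), and its 5 probe sets lay between -0.17 and -0.01. Aldoa turned to 0.04 with median centring, 0.05 with lowess centring and 0.08 with quantile normalization. Aldoc, an aldolase best known from brain, read 9.44 and 8.99. Its difference of -0.45 (1.36-fold lower) was the lowest of all enzymes, and it stood at -0.18 with the mean of both its probe sets, of which 1 is under the floor. Tpi1 read 12.72 and 12.62 (-0.10), with 3 probe sets between -0.14 and -0.04.

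Pfkfb3 and Pfkfb4 encode bifunctional enzymes that set the level of the fructose bisphosphate that activates phosphofructokinase. Pfkfb3, a known HIF target, read 8.43 in the wild-type array and 8.02 in the knockout array (-0.41, 1.33-fold lower). Pfkfb4 read 7.0 and 6.90 (-0.10) and was the member just inside the floor.

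The lower enzymes make adenosine triphosphate and pyruvate. All 4 compared had slightly lower signal, none by 0.32 or more, with a median of -0.10. Pgk1, phosphoglycerate kinase, read 12.99 and 12.88 (-0.11), and its 3 probe sets lay between -0.12 and -0.07. Pgam1, phosphoglycerate mutase, read 12.23 and 12.04 (-0.19). Pkm, pyruvate kinase of most tissues, read 12.49 and 12.40 (-0.09). These 3 transcripts were bright in both arrays and differed by at most 1.14-fold. Eno3, the muscle enolase, read 7.17 and 7.11 (-0.06), close to the floor. Eno2, the neuronal enolase, read 6.49 and 6.77 and was the nearest member outside the floor, so it was not compared. Of 10 skeletal muscle markers, Des alone reached the floor (7.25 and 7.38), and Ckm, Acta1, Myog and Myod1 did not.

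Gapdh, Gpi1 and Bnip3l had no probe set of their own here. Gapdh and Bnip3l are each on 3 probe sets that carry several symbols, which the rule left out. Gpi1 was on no probe set under that symbol. Control probe sets of the array that bear the Gapdh name, designed along the transcript from its 5′ to its 3′ end, read 13.38 and 13.41 at the 5′ end, 13.27 and 13.31 in the middle and 13.51 and 13.41 at the 3′ end. Their differences of 0.03, 0.04 and -0.10 did not share a sign. They were looked at after the gene itself had been left out by the rule.

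Lactate dehydrogenase interconverts pyruvate and lactate. Ldha, whose subunit favours lactate formation, read 12.80 and 12.68 (-0.12). Ldhb, the subunit of oxidative tissues, read 10.87 and 10.68 (-0.20), but its 4 probe sets ran from -0.20 to 0.05. The monocarboxylate transporters move lactate across the membrane. Slc16a1 (MCT1) read 10.86 and 10.87 (0.02). Slc16a3 (MCT4, the transporter of lactate-exporting cells) read 7.89 and 7.63 (-0.26). Neither end of the pathway, uptake or export, held a transcript past 1.5-fold.

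Pyruvate dehydrogenase kinases switch off the entry of pyruvate into the mitochondria. Pdk1, the kinase best known as a HIF target, read 10.08 and 10.18 (0.10), yet its 3 probe sets above the floor ran from -0.38 to 0.10. With probe sets of 1 transcript, Pdk1 stood at -0.38. Pdk2 read 7.04 and 6.84 (-0.20), and at -0.04 with low values raised to 7. Pdk3 read 9.01 and 8.88 (-0.12), and Pdk4, the kinase of fasting, 7.86 and 7.67 (-0.19). Pdha1, the catalytic subunit that the kinases phosphorylate, read 11.11 and 11.14 (0.03), and its other probe set 9.63 and 10.15 (0.52). The 5 genes had a median of -0.12 and none of them reached 0.32 in either direction by the probe set used. Pgk1, Pdk3 and Pdha1 lie on the X chromosome, whose 303 compared genes had a median of -0.03.

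The HIF subunits and oxygen sensors had no common direction, with 4 of 7 (57.1%) lower, near the 59.2% of all compared genes, and a median of -0.07 that turned to 0.02 with quantile normalization. Hif1a, the main alpha subunit, read 12.70 and 12.63 (-0.07), and a second probe set stood at -0.11. Another read 8.84 in the wild-type array and 10.25 in the knockout array, which is 1.41 or 2.65-fold higher, so the Hif1a transcript has no settled direction on these arrays. Epas1, the alpha subunit of HIF2, read 7.56 and 7.70 (0.13). Arnt, the beta subunit, read 9.17 and 9.24 (0.08), and its 3 probe sets above the floor ran from -0.10 to 0.27. Vhl, which recruits the ligase that destroys the alpha subunits, read 8.31 and 8.19 (-0.12), while a dimmer probe set went from 6.51 to 7.14 (0.62).

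The 3 prolyl hydroxylase genes were split. Egln1, the main oxygen sensor and itself a HIF target, read 9.81 and 9.44 (-0.37, 1.29-fold lower), with a further probe set at -0.24. Egln2 read 9.73 and 9.59 (-0.14). Egln3, also induced by HIF, went the other way, at 7.81 and 8.09 (0.27), and a further probe set above the floor stood at 0.09. Both Egln1 probe sets were lower and both Egln3 probe sets higher in the knockout array.

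**Figure D2:**
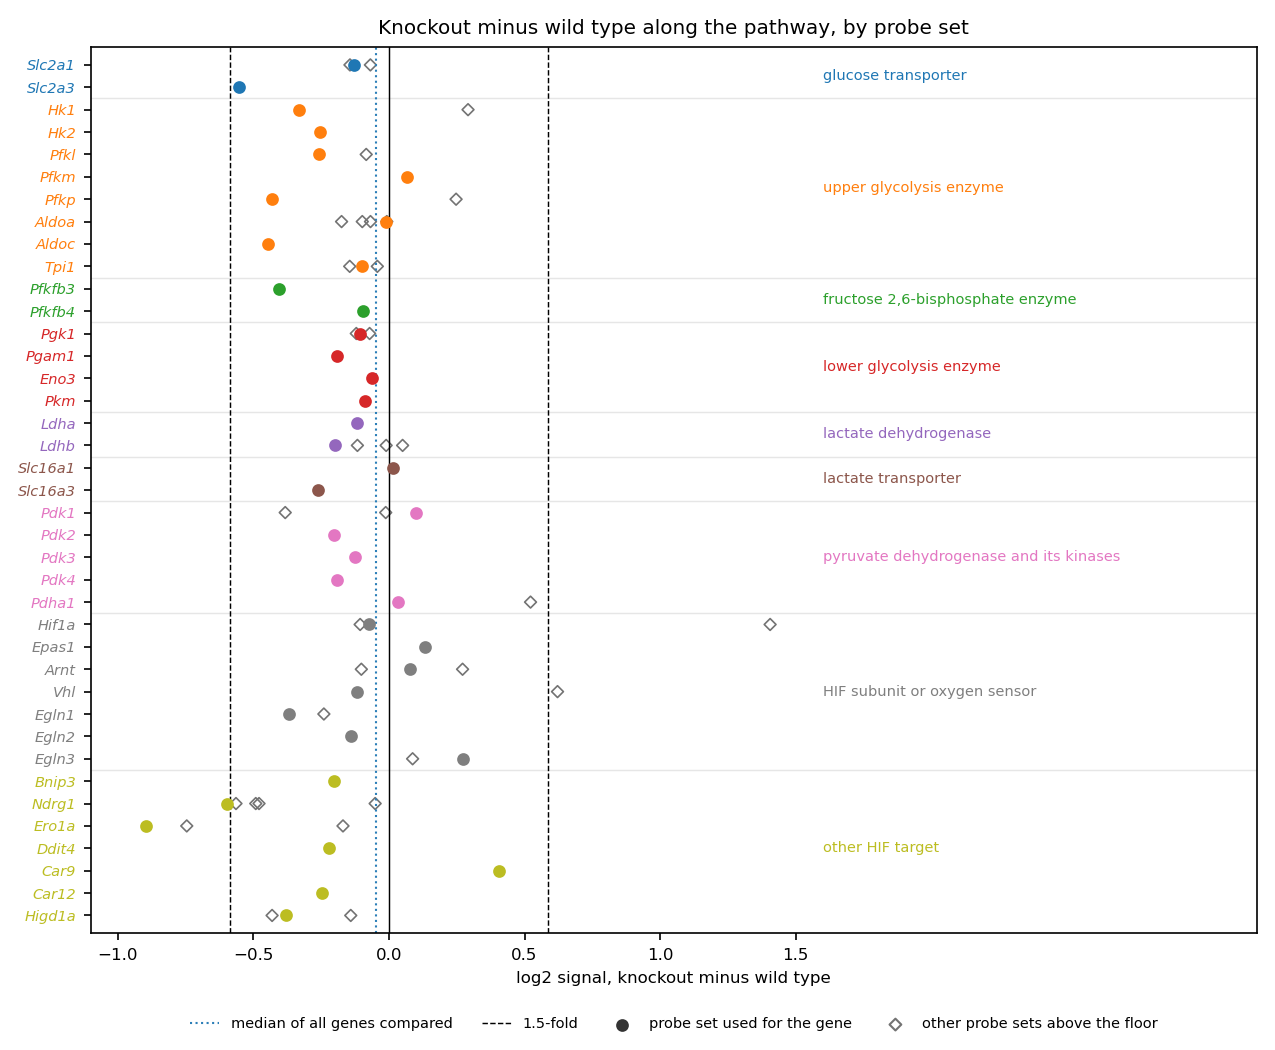
Log2 signal of the knockout minus the wild type (horizontal axis) for the 39 compared members by pathway step; filled circles are the probe set used for the gene, open diamonds its other probe sets above the floor, dashed lines mark 1.5-fold and the dotted line the median of all compared genes (-0.05). Most circles lie left of 0, Ero1a (-0.89) and Ndrg1 (-0.60) lie past the dashed line, and a Hif1a diamond lies at 1.41.

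The 2 members with the lowest differences were HIF targets outside glycolysis. Ero1a, an oxidase of the endoplasmic reticulum that helps form disulphide bonds in secreted proteins, read 10.75 in the wild-type array and 9.86 in the knockout array, which is -0.89 or 1.86-fold lower. It ranked 151 from the lowest among the 9897 compared genes. Its other probe sets read 10.53 and 9.78 (-0.75) and 9.63 and 9.46 (-0.17), so all 3 were lower but by unequal amounts. Ndrg1, a stress-induced gene, read 10.28 and 9.68 (-0.60, 1.51-fold lower) and ranked 337. All 5 of its probe sets were lower, with 4 between -0.60 and -0.48 and the fifth at -0.05. Ndrg1 fell short of 1.5-fold after median centring, at -0.55. Higd1a, a small mitochondrial protein induced by hypoxia, read 12.61 and 12.23 (-0.38, 1.30-fold lower), with its 3 probe sets between -0.43 and -0.14. Among these 3 genes every probe set above the floor was lower in the knockout array.

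Other targets differed less or went the other way. Ddit4, an inhibitor of the growth kinase mTOR, read 10.69 and 10.47 (-0.22). Bnip3, which tags mitochondria for removal, read 12.01 and 11.81 (-0.20). Both are single probe sets with a small difference in the direction of the group. The carbonic anhydrases of the cell surface, which buffer the acid of glycolytic cells, stood apart from each other. Car9, a gene used widely as a hypoxia marker, read 7.66 and 8.06 (0.40, 1.32-fold higher). It ranked 330 from the highest among all compared genes and was the member with the highest difference, by a single probe set. The central 95% of all compared genes ran from -0.69 to 0.47. Car9 and Ndrg1 lie inside that range and Ero1a outside it. Car12 read 7.17 and 6.92 (-0.25), with the knockout value under the floor. Ankrd37 read 5.17 and 5.29, under the floor in both arrays.

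Enzymes and other HIF targets were set side by side. The 16 compared enzymes, from the hexokinases to lactate dehydrogenase with Pfkfb3 and Pfkfb4, had a median of -0.15 and ran from -0.45 to 0.07. The 7 compared targets had a median of -0.25 and ran from -0.89 to 0.40. That median is the value of Car12, whose knockout signal lies under the floor. With values below 7 raised to 7, the target median was -0.22. The enzyme median was thus 0.09 above that of the targets, and between 0.06 and 0.17 above it in the other settings tried. The groups overlapped, with 2 targets below the lowest enzyme and 1 above the highest. By the probe set used, 15 of 16 enzymes were lower (Aldoa turned higher under each rescaling) and 6 of 7 targets, beside 59.2% of all compared genes. These counts include Pfkfb4 and Car12, which could only be lower, and Hk1, Pfkp and Ldhb, whose probe sets differ in sign. With 1 array a group, and members chosen with earlier results of these data known, there is no test of the difference between the groups.

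Probe sets of a gene did not always share a direction. Of the 18 members with more than 1 probe set above the floor, 7 had differences of both signs (Hk1, Pfkp, Ldhb, Pdk1, Hif1a, Arnt and Vhl). Over all compared genes with more than 1 such probe set, this was 46.7% of 3838. In 9 of the 18 members all such probe sets were lower. The matching share over all compared genes was not counted, so the 9 have no background to be read against. When the probe sets of each gene were averaged, the median of the upper enzymes was -0.08 in place of -0.25, and that of the HIF subunits and sensors was 0.11 in place of -0.07. Which transcript forms each probe set covers was not examined.

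Other genes of the same pathways were summarised from 2 further lists. Of 39 further genes of glycolysis and linked carbon metabolism, 24 were compared, of which 16 (66.7%) were lower and 8 higher, beside 59.2% lower over all compared genes, with a median of -0.06 near that of all compared genes (-0.05). Fbp1, a gluconeogenic phosphatase, was the 1 gene of that list past 1.5-fold (3.56% of all compared genes were that much lower), at 7.82 in the wild-type array and 6.60 in the knockout array (-1.21), where the knockout value lies under the floor. The others farthest from 0 were Pdp1, a phosphatase that reactivates pyruvate dehydrogenase, at 8.61 and 8.96 (0.36), the glycogen branching enzyme Gbe1 at 7.28 and 6.95 (-0.33), the glycogen synthase Gys1 at 9.01 and 8.71 (-0.30, with a further probe set at 0.27) and the malate dehydrogenase Mdh1 at 12.22 and 11.93 (-0.29). Eno1 was not analysed here.

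Of 51 further genes of the HIF pathway and hypoxia response, 45 were compared. Of these, 27 (60.0%) were lower, close to the 59.2% of all compared genes, and 18 higher, with a median of -0.10 that was 0.0034 when probe sets were averaged. At least 1.5-fold lower signal was found for 4 of the 45, beside 3.56% of all compared genes. At least 1.5-fold higher signal was found for 1 of the 45, beside 1.56% of all compared genes. Ppp1r3c, which targets a phosphatase to glycogen, read 10.22 and 9.06 (-1.16), with a further probe set at -0.12. Vldlr, a lipoprotein receptor, read 10.24 and 9.46 (-0.78), and its 4 probe sets above the floor lay between -1.11 and -0.35. Plod2, a lysyl hydroxylase of collagen, read 11.64 and 10.87 (-0.78), with a further probe set at -0.51. Lonp1, a mitochondrial protease, read 9.45 and 8.71 (-0.74). Nrn1, a protein that promotes neurite growth, was the gene with higher signal, at 7.58 and 8.92 (1.35). Ppp1r3c and Nrn1 lay farther from 0 than any member.

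**Figure D3:**
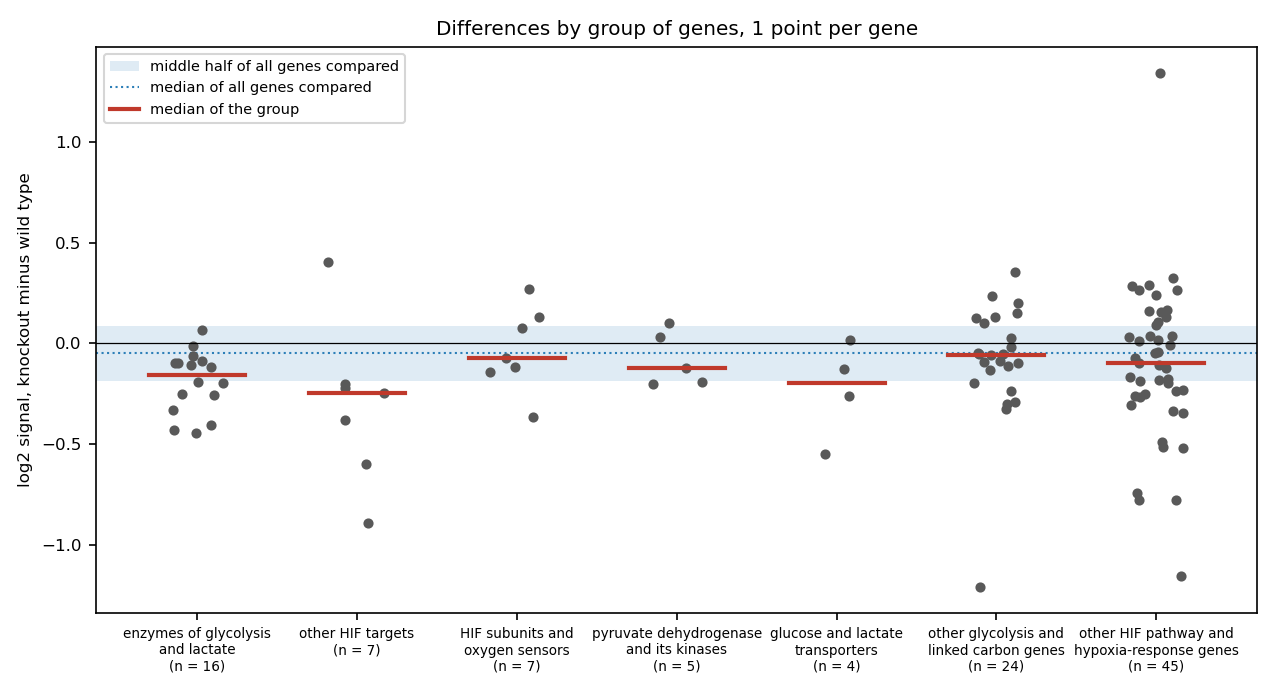
Log2 signal of the knockout minus the wild type (vertical axis), 1 point per compared gene, for 5 groups of members and the 2 lists of further pathway genes; red bars are group medians, the blue band spans the quartiles of all compared genes and the dotted line their median. The target median (-0.25) lies under the band and the enzyme median (-0.15) within it, and both groups overlap.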

How the data were processed

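Per the labels' design text, the authors deposited log2 signals summarised by RMA (Robust Multichip Average). Affymetrix Expression Console 1.1 is named in the submitters' processing notes. RMA corrects background, brings arrays to a common distribution and summarises probes, so a shift shared by most genes is reduced and dim signals are compressed. A small shift remained among the genes compared here, of which 59.2% were lower in the knockout array, with a median of -0.05. The log2 scale was taken from the range of the values (3.24 to 14.2). The set of arrays normalized together is not stated.

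Of 45101 probe sets, 34945 had a single platform symbol, 34741 of them matched by Entrez identifier to a RefSeq table of GRCm38.p6. The brightest probe set by the mean of both arrays stood for a gene, and genes with either value at 7 or more were compared. Differences were counted at 1.5-fold, with 0.32 on the log2 scale and 2-fold as alternatives. The members and lists were chosen with earlier results of these data known. All members are named, and the 5 genes farthest from 0 of each further list. Alternatives were median centring, quantile normalization, lowess centring, floors of 6 and 8 or none, the mean of all probe sets, probe sets of 1 transcript, and low values raised to 7. Python 3.11.15 and pandas 2.3.3 were used, and the calculation was tested on simulated data.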

Additional observations from a re-analysis of the deposited data

Results flagged for a closer look

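Probe sets above the floor that were not used for their gene, yet differed by 1.5-fold or more, were found for 3 members. A Hif1a probe set stood at 1.41, while the other 2 above the floor stood at -0.07 and -0.11. A Vhl probe set stood at 0.62, with its wild-type value of 6.51 under the floor, against -0.12 for the probe set used. An Ero1a probe set stood at -0.75, in the direction of the probe set used (-0.89). What these probe sets detect was not tested.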

How the results depend on the processing

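The median of the members stayed between -0.19 and -0.09 in all settings, the enzyme median between -0.19 and -0.10 and the target median between -0.30 and -0.20. Of the 2 members at least 1.5-fold lower, 1 remained, Ero1a, after median centring, quantile normalization or lowess centring, with averaged probe sets and with probe sets of 1 transcript. By the probe set used, the count was 9 at a threshold of 0.32 (log2) and 0 at 2-fold. The count of higher members was 1 at 0.32. Counts at 0.32 were not repeated in the other settings, and most of the 9 fell short of it with averaged probe sets. When probe sets were averaged, the median of the upper enzymes was -0.084 and that of the HIF subunits and sensors turned to 0.11; the latter was 0.02 with quantile normalization. The further HIF list went from -0.10 to 0.0034 when probe sets were averaged. Between 23 and 31 members were lower, a count that also follows how many were compared. Median centring takes the median of all compared genes from -0.05 to 0 and left 76.9% of members lower. Added after the data were seen were a floor on the mean of both arrays, leaving out members whose probe sets differ in sign, and leaving out X-linked members. These moved no median by as much as 0.1. Signal close to the floor of 7 limits what can be read for Slc2a3, Pfkfb4, Eno3, Pdk2 and Car12. No paired analysis was possible because each group has 1 array.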
